A study of Mus musculus with 4 samples.

Results

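The comparison described here sets the liver of aging diabetic mice given metformin against the liver of untreated aging diabetic mice. Its members are the 2 arrays, of 4 in the series, whose labels name these groups, with 1 array a group. Of the 4 groups, 1 is of naturally aging mice and 3 are of aging diabetic mice, which were untreated, given metformin, or given both metformin and astragalus polysaccharide (APS), carbohydrate extracted from a medicinal legume. Total RNA of whole liver was labelled with Cy5 and hybridized to Agilent mouse expression arrays. All mice were male and had been fasted for 12 h before death, in the controls as in the treated groups. The strain, the age, the way diabetes was produced, the dose and length of metformin treatment and the number of mice behind each RNA are not given in the sources used here, and the meaning of the 60 d in the sample titles is not stated. With 1 array a group there is no replicate and no test, so each difference is one between both arrays, and what metformin and what single mice contributed to it cannot be told apart.

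Metformin is a biguanide that lowers blood glucose mainly through the liver. It is carried into hepatocytes and accumulates in mitochondria, where it inhibits complex I of the respiratory chain. The fall in cellular energy activates AMP-activated protein kinase (AMPK), and glucose output and lipid synthesis decline. Much of this takes place on proteins rather than on mRNA.

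A level is given as the log2 of a gene's processed signal less the 75th percentile of its array, so 0 is the signal at that percentile, and levels are compared between arrays for 1 gene, never between genes. Of 59305 spots that are not controls, 33668 to 37402 were well above background on the 4 arrays, with 34895 on the aging diabetic and the most on the metformin array. No spot was saturated. The 75th percentile signal was 3068 on the aging diabetic and 3589 on the metformin array. The error given with a difference combines what the image analysis reports for both spots, had a median of 0.166 log2 and covers measurement only, without the spread between animals. The labelled tissue fitted its markers: all 18 hepatocyte markers with a usable probe were well above background on both arrays, with median levels of 4.06 on the aging diabetic and 3.75 on the metformin array.

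A gene was called higher or lower on the metformin array at a difference of 1 log2, which is 2-fold. Of 15812 genes compared, 1860 were higher (11.8%) and 553 were lower (3.5%), and the median difference over all of them was -0.0029. At 4-fold, 341 genes were higher and 86 lower, and at 8-fold 64 were higher and 13 lower. The split depended on the scale set for each array: 77.1% of the called genes were higher with the 75th percentile, 64.0% with each array's median in its place and 92.3% with the mean of 5 E1A control probes. These scalings moved the median of all genes to -0.17 and 0.36. Among genes well above background on 1 array only, the difference of 1758 is a bound, written as at least N-fold. A further 165 had no resolved difference and entered as 0. Of all these genes, 1620 were bright on the metformin array only and 303 on the aging diabetic array only. The former could not be called lower, nor the latter higher. With both arrays required to be well above background, 1347 genes were higher and 435 lower. Other probes of the called genes numbered 563, and 87.9% of them differed in the same direction, while 50.1% were past 2-fold themselves.

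**Figure D1:**
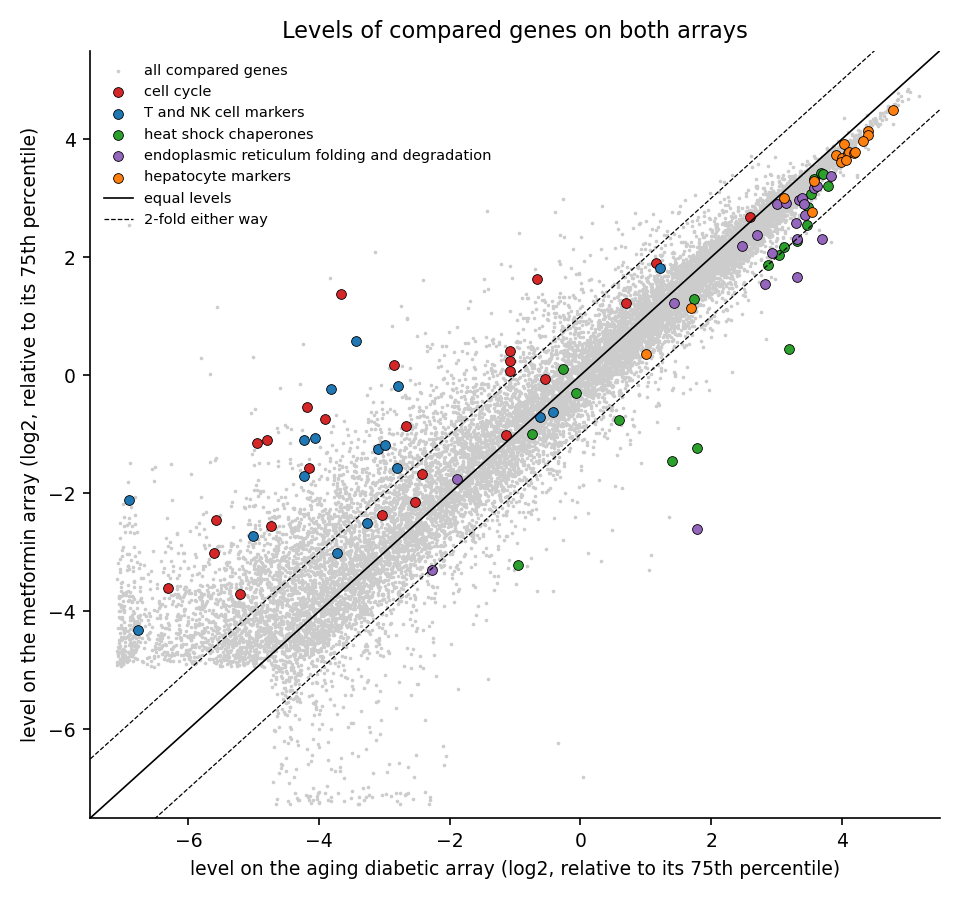
Level of each compared gene on the aging diabetic array (horizontal axis) and on the metformin array (vertical axis), both in log2 relative to the array's 75th percentile, for 15812 genes (grey) and 5 gene lists (coloured). Hepatocyte markers lie at the bright end just under the line of equal levels, cell cycle and T and NK cell markers lie mostly above the upper 2-fold line among dimmer genes, and 7 heat shock and 6 endoplasmic reticulum genes lie below the lower line.

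The called genes were mostly dim ones. With the compared genes put into 4 equal classes by their mean level over the 4 arrays, 22.6% of the dimmest class were higher on the metformin array, then 16.9%, 6.58% and 0.885% in the brightest class. The shares lower were 5.14%, 5.14%, 2.73% and 0.987%, and the median difference went from 0.30 in the dimmest to -0.16 in the brightest class. The counts of the main lists are therefore given beside the share in the class of their median member, although the members of a list may lie in several classes. Counts with no share beside them are to be set against all compared genes, with 11.8% higher and 3.5% lower. The class shares include genes bright on 1 array only, mostly the metformin array, and those bright on that array only could not be called lower. Of genes well above background on both arrays whose brighter level was above 0, 321 of 6984 were higher and 159 lower.

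Long noncoding RNA genes were called lower more often than higher, unlike protein-coding genes. Of 1110 long noncoding RNA genes compared, 70 were higher (6.31%) and 106 lower (9.55%), with a median of -0.16. Among 14521 protein-coding genes, 1776 were higher (12.2%) and 436 lower (3%), with a median of 0.00. The difference was there among genes of like brightness too: in the dimmest class 8.08% of 569 noncoding genes were higher against 25.4% of 3323 protein-coding genes, and 10.7% were lower against 4.06%. With E1A scaling the noncoding genes split into 153 higher and 58 lower, and without the filter on dim probes into 270 and 200, so their direction depends on the setting. In both settings their share higher stayed under that of protein-coding genes, which was 20.0% and 14.6%. With measured differences in place of bounds the shares higher were close, at 14.1% of noncoding and 15.8% of protein-coding genes, while 12.3% and 3.44% were lower. In the second brightest class the shares higher were close too, at 5.67% and 6.59%, with 7.80% and 2.54% lower. Meg3 and Rian, described below, are noncoding RNAs and were higher.

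**Figure D2:**
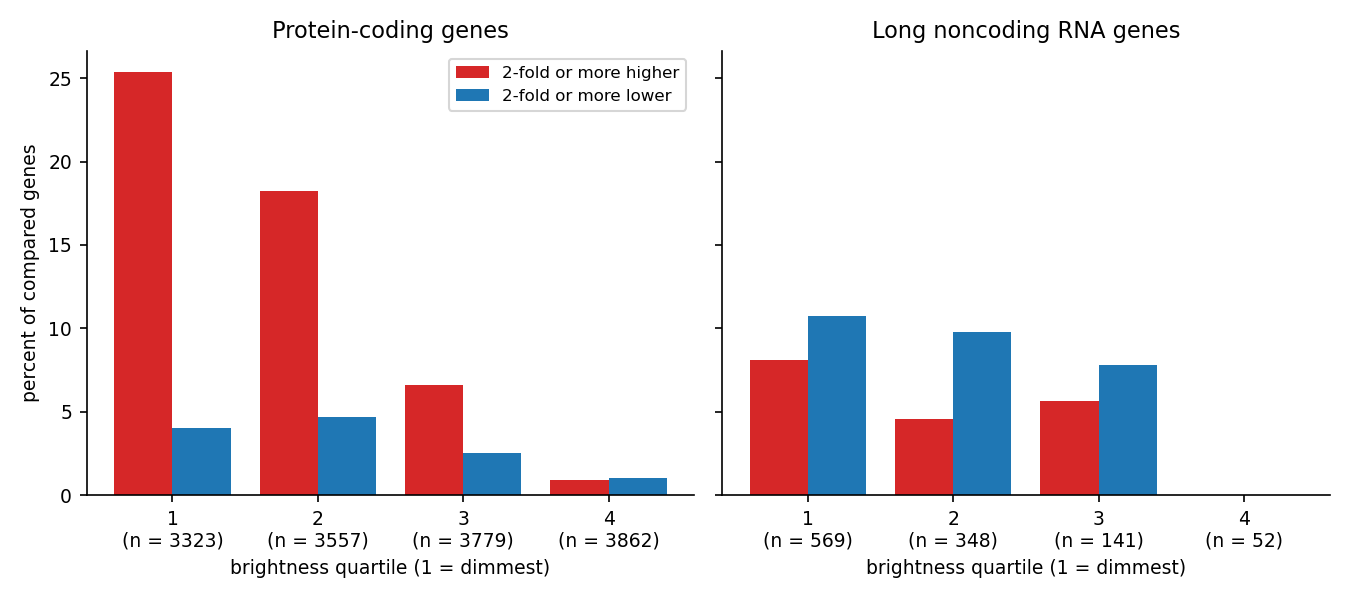
Percent of compared genes that were 2-fold or more higher (red) or lower (blue) on the metformin array, in 4 brightness classes from dimmest to brightest, for protein-coding genes (left) and long noncoding RNA genes (right). Among protein-coding genes the higher share falls from 25.4% to 0.906% with brightness, while among noncoding genes the lower share is the larger in the 3 dimmer classes and no gene of the brightest class was called.

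Heat shock chaperones had the lowest median of the 58 gene lists examined. Heat shock proteins hold other proteins in a folded state, and their genes are switched on by heat shock factors that bind repeats of GAA and its reverse TTC close to the start site. The promoter windows of Hsph1 and Chordc1, from the RefSeq table for GRCm38.p6, are shown because both genes were lower and both windows hold a run of such units, marked in capitals. The window of Hsph1, a partner of the major inducible chaperone, is chr5:149636266-149636565 on the minus strand and holds 1 match of 3 units. A further annotated start of Hsph1 gives an overlapping window with the same match. The window of Chordc1, a helper of the chaperone Hsp90, is chr9:18292017-18292316 on the plus strand, and its 5 units in a row give 3 overlapping matches.

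Hsph1: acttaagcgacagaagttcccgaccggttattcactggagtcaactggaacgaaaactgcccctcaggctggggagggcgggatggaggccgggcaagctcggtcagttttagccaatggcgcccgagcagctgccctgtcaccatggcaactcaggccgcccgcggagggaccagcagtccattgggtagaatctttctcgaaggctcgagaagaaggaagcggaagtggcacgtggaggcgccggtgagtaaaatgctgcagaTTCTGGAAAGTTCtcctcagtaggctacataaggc

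Chordc1: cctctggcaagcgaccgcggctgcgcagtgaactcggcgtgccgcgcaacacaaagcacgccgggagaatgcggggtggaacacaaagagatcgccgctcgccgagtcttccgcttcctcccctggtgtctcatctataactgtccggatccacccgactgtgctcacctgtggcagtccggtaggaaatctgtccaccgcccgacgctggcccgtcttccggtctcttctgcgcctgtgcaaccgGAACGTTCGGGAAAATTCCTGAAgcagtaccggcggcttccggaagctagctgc

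The letters searched were GAA, TTC and GAA, each 2 bases apart, on both strands of windows of 300 bases, and matches may overlap. They occurred in 179 of 27025 genes with a window (0.662%) and in 4 of the 16 heat shock genes with a window, Hsph1, Chordc1, Hspd1 and Hspe1. The mitochondrial chaperones Hspd1 and Hspe1 each differed by -0.24 and were not called.

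Of 20 heat shock genes compared, 7 were lower and none higher, with a median of -0.78. They lay in classes of different brightness: 3 of the 13 members in the brightest class were lower, against 0.987% of all its genes, 3 of 6 in the next class, against 2.73%, and the 1 member in the class below that, against 5.14%. Hspa1a, an inducible Hsp70, stood at 1.83 in natural aging and 1.79 in untreated diabetes, against -1.23 with metformin and -3.22 with APS plus metformin. Both untreated arrays were thus high and both metformin arrays low, and the metformin array was 8.11-fold below the aging diabetic array (error 0.165 log2). Its near-identical copy Hspa1b, which these probes may not tell apart, stood at 3.75 and 3.19 on the untreated arrays, 0.45 with metformin and -0.66 with APS plus metformin. It was 6.69-fold lower with metformin.

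Hsph1 had levels of 2.22 and 1.41 on the untreated arrays and of -1.45 and -1.87 with metformin and with APS plus metformin. The 7.24-fold difference from the aging diabetic array was smaller by its other probe, at -1.39 log2. Chordc1 stood at -0.89, -0.96, -3.22 and -3.11 in the same order and was 4.78-fold lower. Again the untreated arrays were close to each other and the metformin-treated arrays were both lower.

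Dnajb1, an Hsp40 partner of Hsp70, was at 4.09 in natural aging, 3.31 in untreated diabetes, 2.27 with metformin and 1.88 with APS plus metformin. Its difference of -1.04 and those of Hspa4l (-1.35) and the small heat shock protein gene Hspb1 (-1.01) completed the 7 lower genes. Stip1, Bag3 and the constitutive chaperone Hspa8 were just short of 2-fold, at -0.999, -0.94 and -0.92. Hsf1, which encodes the heat shock factor itself, differed by -0.25, and Cryab was the 1 member above 0, at 0.38. With outlier spots kept the list's median was -0.58, with all probes of a gene averaged -0.96, and with E1A scaling -0.40.

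Genes for protein folding and disposal in the endoplasmic reticulum (ER) were lower in part. Of 21 compared, 6 were lower and none higher, with a median of -0.47. Of the 18 members in the brightest class 4 were lower, against 0.987% of all its genes, and 2 of 3 in the second dimmest class, against 5.14%. Of the 21 differences 20 were below 0, while all genes of the brightest class had a median of -0.16. Derl3, which takes part in the export of misfolded proteins from the ER, stood at -1.45 in natural aging, 1.78 in untreated diabetes, -2.60 with metformin and -4.14 with APS plus metformin. The aging diabetic array was the single high one, and the metformin array was 20.8-fold below it (error 0.174 log2, 1 usable probe).

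Sdf2l1, an ER chaperone cofactor, was at 2.90, 3.31, 1.67 and 1.24 in that order, and Creld2, a secreted ER stress protein, at 3.65, 3.70, 2.32 and 1.54. Both were high on the untreated and low on the metformin arrays, with folds of 3.13 and 2.60. The Hsp40 gene Dnajb9 was at 2.82 in untreated diabetes, 1.55 with metformin and 2.31 with APS plus metformin, and its other probe differed by -1.34 against -1.28. Hyou1 (-1.02, with -2.13 and -0.90 by its other probes) and the ubiquitin ligase gene Syvn1 (-1.003) were the other members called. Hspa5, the central Hsp70 of the ER, was short of 2-fold at -0.52 but at -1.13 by its other probe. Also short were Herpud1 (-0.86) and the transcription factor gene Xbp1 (-0.37). The median came to -0.30 after quantile normalization and after cyclic loess, and to -0.09 with E1A scaling.

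Genes turned on by the transcription factor ATF4 when amino acids run short did not move together. Of 24 compared, Asns and the cationic amino acid transporter gene Slc7a1 (1.31) were higher and none was lower, with a median of 0.11 that turned to -0.06 with scaling on the array median. Asns encodes asparagine synthetase and stood at 1.04 in natural aging, -1.88 in untreated diabetes, 0.81 with metformin and -0.77 with APS plus metformin. It was lowest on the aging diabetic array, 6.49-fold under the metformin array, and its other probe differed by 3.67. Its window, chr6:7693160-7693459 on the minus strand, is shown with the ATF4 type of match TGATGNAA (reverse TTNCATCA) in capitals.

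Asns: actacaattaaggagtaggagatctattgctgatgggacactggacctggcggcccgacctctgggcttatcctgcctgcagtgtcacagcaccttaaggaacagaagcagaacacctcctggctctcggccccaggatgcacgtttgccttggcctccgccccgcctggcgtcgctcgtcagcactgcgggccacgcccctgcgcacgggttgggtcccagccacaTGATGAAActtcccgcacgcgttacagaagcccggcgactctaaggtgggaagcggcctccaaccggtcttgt

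Such a match lay in 1219 windows (4.51%) and in 7 of the 23 list members with a window. Of these, Asns was higher, while Chac1 (-0.94), Trib3 (0.71), Nupr1 (0.64), Slc7a11 (0.48) and Vldlr (0.12) were short of 2-fold and Fgf21 had no usable probe. Gdf15, a stress hormone that metformin is known to raise, stood in the same list at 0.72, and Atf4 itself at -0.14.

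The genes through which metformin enters and acts on hepatocytes differed little. Slc47a1, which exports metformin, was at 2.13 in natural aging, 2.71 in untreated diabetes, 2.35 with metformin and 2.54 with APS plus metformin. The levels lay close together, with a difference of -0.36. Slc22a3, a low-affinity transporter of organic cations, was 2.09-fold higher and the 1 of 5 transporter genes called. The median of this list was -0.36 and turned to 0.02 with E1A scaling.

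Among 12 genes of AMPK and its upstream kinases, Prkab2 was higher and none was lower, with a median of -0.14 (0.24 with E1A scaling). Prkab2 encodes a regulatory subunit and stood at -1.48, -1.95, -0.24 and -1.16, so the metformin array was the highest of the 4 and 3.27-fold above the aging diabetic array. The catalytic subunit genes Prkaa1 (0.68) and Prkaa2 (-0.06) and the kinase gene Stk11 (-0.16) were short of 2-fold.

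All 26 complex I subunit genes compared had differences between -0.35 and -0.07, with a median of -0.24, in the brightest class whose own median was -0.16. None was called, and with E1A scaling the median was 0.14. Gpd2, the mitochondrial glycerophosphate dehydrogenase and a proposed target of metformin, was the 1 of 8 shuttle genes called. Its levels were -2.11, -1.96, -3.02 and -3.57 in the order of arrays above, low on both arrays with metformin, and it was 2.09-fold lower.

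Gluconeogenesis genes were not called in either direction among 14 compared, with a median of -0.16 (0.22 with E1A scaling). Pck1, which catalyses an early step, was at 4.35 in natural aging, 4.04 in untreated diabetes, 3.65 with metformin and 4.16 with APS plus metformin, the lowest of the 4 with metformin alone. G6pc, which releases free glucose, was at 4.08, 3.63, 3.49 and 3.52. The differences were -0.39 for Pck1, -0.14 for G6pc and -0.34 for Fbp1. Of 16 insulin signalling genes, the feedback inhibitor gene Socs3 (1.07) was called, while Irs2 (-0.50), Igfbp1 (-0.06) and Insr (-0.42) were not.

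In glycolysis and glucose uptake 4 of 25 genes were higher and 1 lower. The 1 member in the dimmest class was higher, against 22.6% of all its genes. In the next class 2 of 4 were higher, against 16.9%, and 1 lower, against 5.14%. In the class above 1 of 10 was higher, against 6.58%, and none of the 10 in the brightest class was called. Pfkfb3, whose product raises glycolytic flux, stood at 2.35 in natural aging, -0.25 in untreated diabetes, 1.33 with metformin and 0.77 with APS plus metformin. Lowest on the aging diabetic array, it differed by 1.59 with metformin. The others called were hexokinase genes of other tissues than hepatocytes, Hk2 (1.31) and Hk3 (1.32, with 0.37 by its other probe), Pfkp (1.19, with 0.70 by its other probe) and, lower, the insulin-responsive glucose transporter gene Slc2a4 (-1.46). The hepatocyte genes Pklr (0.01) and Slc2a2 (-0.53) were short of 2-fold. In glycogen metabolism 3 of 12 genes were higher, among them Ppp1r3c, which targets a phosphatase to glycogen, at 2.75-fold. By class these were 2 of 2 in the dimmest, against 22.6% of all its genes, and 1 of 5 in the second brightest, against 6.58%.

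Lipid genes gave single calls rather than a common shift. Of 18 lipogenic genes, Scd2 (1.74) and Mogat1 (1.27) were higher and the elongase gene Elovl6 was lower. The shares over all genes compared were 11.8% higher and 3.5% lower. Elovl6 stood at 2.60 and 2.49 on the untreated arrays, 1.35 with metformin and 0.83 with the combination, with a difference of -1.13. Srebf1 (0.34), Acly (-0.09) and Acaca (-0.54, with -0.70 and 0.85 by its other probes) were short of 2-fold, and Fasn and Scd1 had no usable probe. Of 15 lipid droplet genes, Plin4 and Cidea, both abundant in adipocytes, were higher, against 11.8% of all genes compared. Plin4 had levels of -1.37 in untreated diabetes, 1.06 with metformin and 0.97 with APS plus metformin and a fold of 5.38.

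Pdk4 was the 1 of 17 genes of fatty acid oxidation and ketogenesis called. It encodes a kinase that keeps pyruvate from oxidation and stood at 2.21 in natural aging, -0.14 in untreated diabetes, 1.82 with metformin and 0.79 with APS plus metformin, 3.90-fold higher with metformin. The list's median was -0.24 (0.14 with E1A scaling) and Cpt1a, which admits fatty acids to mitochondria, was at -0.30. Neither the 9 regulators of mitochondrial biogenesis, the 19 autophagy and lysosome genes, the 17 sirtuin and NAD synthesis genes nor the 22 antioxidant genes held a called gene. The closest was Nqo1, an antioxidant reductase gene, just under the threshold at 0.997.

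Cholesterol synthesis and LDL uptake was a bright list with a positive median. Of 21 compared, 6 were higher and none lower, with a median of 0.79, and 19 of 21 differences were above 0. Of the 15 members in the brightest class 2 were higher, against 0.885% of all its genes, and of the 5 in the next class 3 were, against 6.58%. Sqle, which encodes squalene epoxidase, stood at -0.08 in natural aging, -1.05 in untreated diabetes, 1.65 with metformin and 1.25 with APS plus metformin. Both metformin arrays were above both untreated arrays, and the fold over the aging diabetic array was 6.50.

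Cyp51, a lanosterol demethylase, was at 1.53, 0.84, 2.75 and 2.40 in that order, in the same pattern, and its other probe differed by 2.88 against 1.91. Msmo1 was at 2.54, 2.20, 3.27 and 3.20, with a fold of 2.11 and 1.76 log2 by its other probe. Srebf2, the transcription factor of the pathway, was 2.04-fold higher. Hmgcs1 (0.72), Lss (0.85, with 0.93 and 1.35 by its other probes), Fdps (0.54) and Ebp (-0.41) were short of 2-fold. The sterol type of match TCACNCCAC (reverse GTGGNGTGA) lay in 1 of the 16 members with a window, Hmgcs1, and in 1.44% of all genes.

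Bile acid genes were mostly slightly below 0, with 16 of 19 differences negative and a median of -0.30 (0.081 with E1A scaling). Cyp8b1, which sets the share of cholic acid, was the 1 gene called. It stood at 0.90 in natural aging, 1.68 in untreated diabetes, -0.24 with metformin and 1.30 with APS plus metformin, lowest with metformin alone and 3.77-fold under the aging diabetic array. Cyp7a1, the rate-limiting enzyme, was short of 2-fold at -0.72, and the FXR target Nr0b2 was at 0.33. No apolipoprotein gene of 15 was called.

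**Figure D3:**
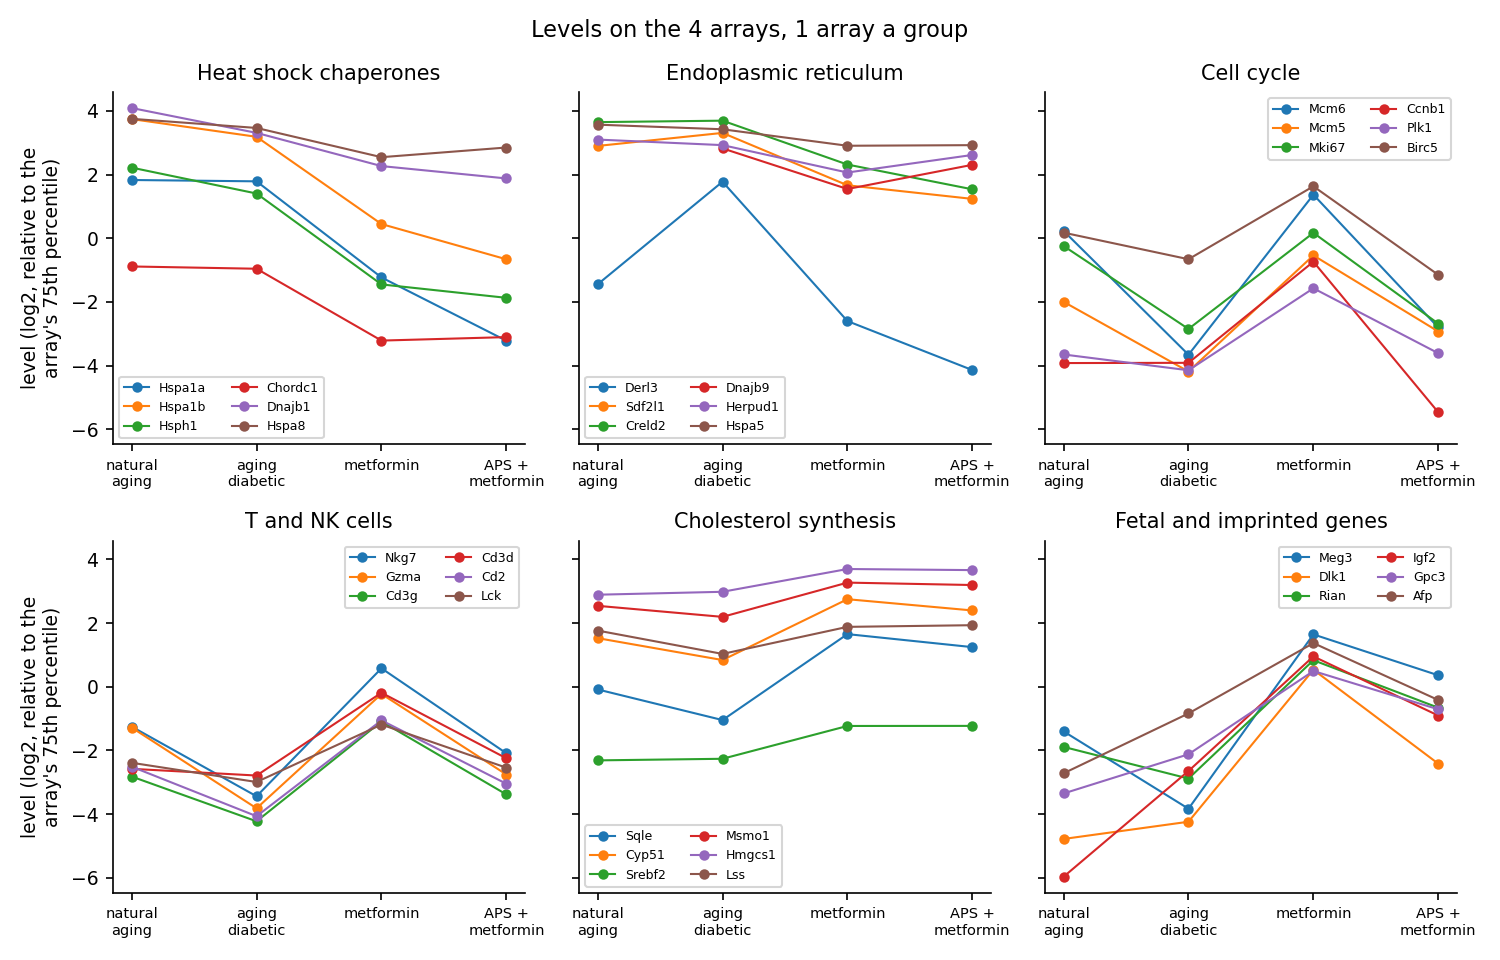
Levels of genes on the 4 arrays, in log2 relative to each array's 75th percentile, with 1 panel for each of 6 gene groups of 6 genes and 1 line a gene, lines joining arrays for reading only. Heat shock genes are low and Sqle and Cyp51 high on both arrays with metformin, while cell cycle and T and NK cell genes are high on the metformin array and low on the array of APS plus metformin.

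The largest measured difference was that of Meg3, an imprinted noncoding RNA. Meg3 stood at -1.40 in natural aging, -3.83 in untreated diabetes, 1.65 with metformin and 0.36 with APS plus metformin, 44.6-fold higher with metformin (error 0.232 log2). Its 3 other probes differed by 1.59, 3.79 and 4.78, so the size depended on the probe. From the same imprinted region, the growth regulator gene Dlk1 was at -4.78, -4.24, 0.53 and -2.42 and Rian at -1.89, -2.88, 0.83 and -0.66, with folds of 27.4 and 13.2. The other probe of Dlk1 differed by 1.99 against 4.78. All of these were highest on the metformin array. Rtl1, an imprinted neighbour, was near the floor of detection on all arrays (-4.73, -4.63, -4.93 and -4.55), where a difference cannot be read.

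These genes belong to the list of fetal liver and liver tumour genes. With them counted in, 11 of the 19 genes compared were higher and 1 lower, with a median of 1.03, against 16.9% of genes higher in the class of its median member. Igf2, a fetal growth factor, stood at -5.97 in natural aging, -2.65 in untreated diabetes, 0.95 with metformin and -0.91 with APS plus metformin. Its fold was 12.1, and its other probe differed by 1.39. Afp, alpha-fetoprotein, was at -2.72, -0.84, 1.37 and -0.42 and the glypican gene Gpc3 at -3.35, -2.12, 0.49 and -0.71, with folds of 4.63 and 6.13. The natural aging array was the lowest and the metformin array the highest for each of the latter genes. H19 was 3.01-fold higher, and the imprinted Peg3 was 2.21-fold lower.

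The cell cycle list held the most higher genes of all 58 lists. Of 25 compared, 17 were higher and none lower, against 16.9% higher in the class of the median member. The median was 1.49 (1.23 over genes well above background on both arrays). Mki67, the proliferation marker, stood at -0.24 in natural aging, -2.85 in untreated diabetes, 0.17 with metformin and -2.68 with APS plus metformin. The natural aging and metformin arrays were high and the others low, with an 8.12-fold difference from the aging diabetic array.

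Mcm6, a subunit of the replication helicase, was at 0.23, -3.66, 1.37 and -2.80 and was 32.6-fold higher, but its other probe differed by 0.85. Mcm5, of the same helicase, was at -1.997, -4.19, -0.54 and -2.93 and 12.5-fold higher. The mitotic cyclin gene Ccnb1 was 9.05-fold higher, with 1.23 and 1.79 log2 by its other probes. Birc5, a mitotic regulator, was at 0.18, -0.66, 1.63 and -1.15 and 4.89-fold higher, and its other probe was higher too.

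Other members had bounds: Top2a was at least 12.2-fold and Ccna2 at least 12.7-fold higher, with other probes at 2.67 and 2.75. Pcna (0.09), Mcm2 (0.13), Aurka (0.39) and Cdc20 (0.48) were short of 2-fold, although the other probe of Cdc20 differed by 2.47. Outside the list Cenpm, a centromere protein gene, was 37.4-fold higher, with levels of -0.95, -3.14, 2.08 and 2.12, equal on both metformin arrays. The letters TTTGAA or TTCAAA, of the cell cycle type, lay in 10 of the 23 list members with a window and in 20.2% of all genes. Of 17 p53 and senescence genes, 2 were higher, among them Pmaip1 (1.04), and Trp53 (-1.10) was lower. Over all genes compared, 11.8% were higher and 3.5% lower.

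**Figure D4:**
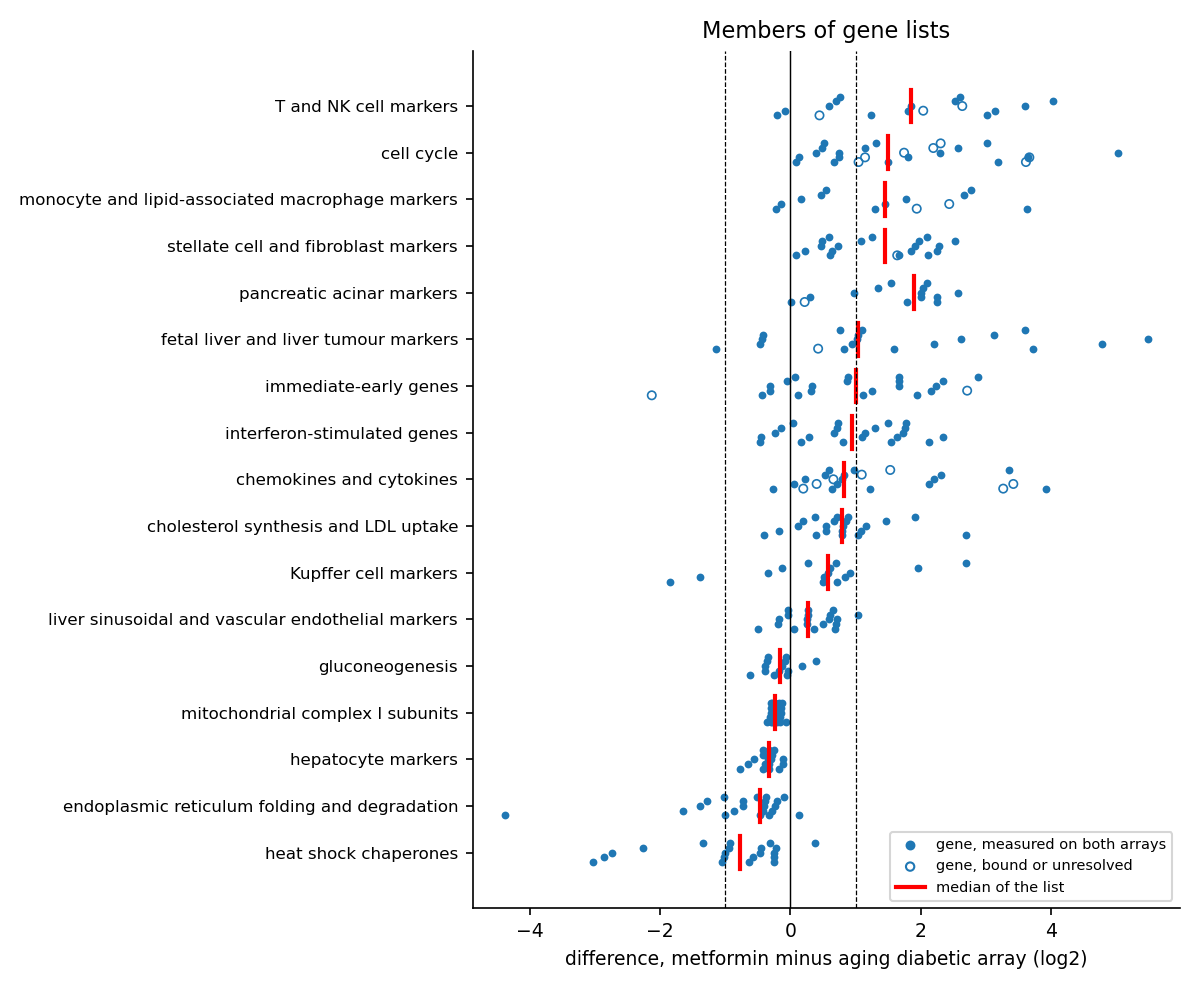
Difference of the metformin from the aging diabetic array in log2 for each compared member of 17 gene lists, with measured differences as filled and bounds as open points, the list's median as a red bar and dashed lines at 2-fold either way. Medians run from 1.89 for pancreatic acinar markers to -0.78 for heat shock chaperones, while complex I subunits and hepatocyte markers form narrow groups between 0 and -0.78.

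Many markers of T and NK cells and of recruited monocytes and macrophages, and fewer of B cells, were higher on the metformin array. In RNA of whole tissue, more cells of a type and more RNA per cell cannot be told apart. Of 17 T and NK cell markers compared, 11 were higher and none lower, with a median of 1.85, against 16.9% higher in the class of the median member. Their summed signal, as log2, was 2.57 in natural aging, 2.27 in untreated diabetes, 3.48 with metformin and 2.88 with APS plus metformin. This sum leans on its brightest member, Zap70, which was not called and stood at 0.82, 1.22, 1.81 and 1.96. The median levels of the list were -2.39, -3.44, -1.19 and -3.02, which puts APS plus metformin below natural aging. Nkg7, a granule protein gene of cytotoxic cells, stood at -1.25, -3.44, 0.58 and -2.09 and Gzma, a granzyme, at -1.28, -3.82, -0.23 and -2.76. Both were highest with metformin and lowest on the aging diabetic array, with folds of 16.2 and 12.1.

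The T cell receptor component Cd3g was at -2.82, -4.23, -1.09 and -3.38 (8.80-fold), and Cd3d was 6.07-fold higher, with 2.68 by its other probe. Lck, a T cell kinase, was 3.49-fold higher by its brightest probe and showed 0.00 by the other. Cd4 (-0.08), Cd8a (0.76) and Prf1 (-0.21) were short of 2-fold. Of 10 B and plasma cell markers 3 were higher, among them Cd79b (1.31), with a median of 0.21 and 16.9% higher in the class. Of 10 dendritic cell markers 4 were higher, against 22.6% in the class, with a median of 0.54, which turned to -0.06 over genes well above background on both arrays.

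Of 13 markers of recruited monocytes and lipid-associated macrophages, 8 were higher and none lower, with a median of 1.45, against 16.9% higher in the class of the median member. Of the 6 members in the brightest class 1 was higher. The chemokine receptor gene Ccr2 was at -1.71, -2.89, -0.23 and -3.03 and Trem2, a lipid receptor, at -2.13, -0.81, 0.97 and -1.65, with folds of 6.32 and 3.41. Each was highest on the metformin array. Cx3cr1 was 12.3-fold higher, with 1.16 log2 by its other probe, and Itgax was at least 3.83-fold higher while its other probe differed by -3.03, so for Itgax the probes went opposite ways.

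Resident Kupffer cell markers went both ways, with 2 of 15 higher and 2 lower, against 11.8% and 3.5% of all genes compared. By class, the 1 member in the second dimmest was higher, against 16.9% of all its genes. In the next class 1 of 5 was higher, against 6.58%, and 2 were lower, against 2.73%. None of the 9 in the brightest class was called. Folr2, a folate receptor of resident macrophages, was at 1.99, -0.31, 2.37 and 0.71 and 6.44-fold higher, lowest on the aging diabetic array. The scavenger receptor genes Cd163 (1.47, 0.75, -1.10 and -1.01) and Marco (1.33, 1.02, -0.37 and -1.32) were low on both metformin arrays, 3.60-fold and 2.62-fold below the aging diabetic array. Clec4f (-0.34), Vsig4 (0.61) and Timd4 (0.84) were short of 2-fold. Among 11 neutrophil markers, Ltf (1.03) was higher and Elane was at least 3.69-fold lower. Both were among the 5 in the dimmest class, where 22.6% of all genes were higher and 5.14% lower.

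Chemokine and cytokine genes had 10 of 23 members higher and none lower, with a median of 0.82. Of the 8 in the dimmest class 4 were higher, against 22.6% of all its genes, then 2 of 6, against 16.9%, and 4 of 7, against 6.58%. Ccl2, the main attractant of monocytes, stood at -0.86 in natural aging, -2.75 in untreated diabetes, 1.17 with metformin and -2.10 with APS plus metformin, 15.1-fold higher with metformin. Genes that neighbour it in the GRCm38.p6 assembly gave bounds in the same direction, at least 9.61-fold for Ccl7, 10.7-fold for Ccl8, 2.35-fold for Ccl11 and 2.34-fold for Ccl12. Ccl5, a lymphocyte attractant, was at 0.04, -0.94, 2.41 and -0.31 and 10.2-fold higher. For each of these genes the metformin array was the highest of the 4. Tnf (0.66) and Il6 (0.40) were short of 2-fold, and Il1b was 2.34-fold higher.

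Interferon-stimulated genes were higher in 11 of 22 cases and lower in none, with a median of 0.95. In the class of the median member 6.58% of all genes were higher. Ifit2 was at -2.12, -2.68, -0.34 and -1.85 (5.06-fold) and Oasl2, an antiviral synthetase relative, at -1.17, -0.82, 0.91 and -1.81 (3.32-fold). Irf7, the master regulator of the response, was 2.22-fold higher, with 2.36 log2 by its other probe. The metformin array was the highest for all of them. Isg15 (0.81) and Iigp1 (-0.46) were short of 2-fold. In antigen presentation 4 of 17 were higher, all in the class II branch. H2-Eb1 (1.39), H2-DMb1 (1.38) and H2-DMa (1.28) were 3 of 5 members in the second brightest class, against 6.58% of all its genes. Ciita, whose probes went opposite ways (1.54 by the brightest), was the 1 member in the class below, against 16.9%. None of the 11 members in the brightest class was called, against 0.885% higher.

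The acute-phase list held 1 call of 17, Hamp, which encodes the iron hormone hepcidin. Hamp was at -2.75, 1.60, 2.97 and 3.43 and 2.58-fold above the aging diabetic array. Saa1 (-0.10), Hp (-0.20) and Orm1 (-0.14) were close to 0. In iron regulation 5 of 18 were higher, against 6.58% in the class, with Hamp2 at 6.03-fold and Id1, a target of the BMP signal that drives hepcidin, at -2.12, -1.36, 0.59 and 0.62 and 3.86-fold, high on both metformin arrays. Bmp6, the ligand, was at 0.75, and Smad7, a feedback inhibitor, was 2.26-fold higher, with 0.66 log2 by its other probe.

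Stellate cell and fibroblast markers had 12 of 20 members higher and none lower, with a median of 1.45. By class these were 2 of 4 in the dimmest (22.6% of all its genes higher) and 4 of 4 in the next (16.9%). In the class above 5 of 6 were higher (6.58%), and in the brightest 1 of 6 was (0.885%). The summed signal of the list as log2 was 5.86 in natural aging, 5.13 in untreated diabetes, 5.88 with metformin and 5.62 with APS plus metformin. The collagen gene Col3a1 stood at 1.80, -0.11, 2.13 and 0.49 and Pdgfrb, the receptor that marks stellate cells and pericytes, at -0.38, -2.61, -0.08 and -0.97. The natural aging and metformin arrays were thus close to each other and the aging diabetic array was the lowest, 4.74-fold and 5.76-fold under the metformin array. Col1a1 was 3.76-fold higher, with 1.76 and 3.79 log2 by its other probes, and Col6a3 was 4.86-fold higher with 0.25 by its other probe. The contractile genes Acta2 (0.23) and Tagln (0.08) and the matrix gene Dcn (0.49) were short of 2-fold.

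Endothelial markers gave 1 call of 19, Lyve1 (1.04), with a median of 0.28. No hepatocyte marker of 18 was called, and all were below 0, with a median of -0.33 that turned to 0.05 with E1A scaling. Alb was at 4.23, 4.11, 3.78 and 4.12, lowest on the metformin array. Whether different shares of cell types in the pieces of liver taken went into the cell cycle, cytokine and matrix differences was not tested.

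Pancreatic acinar genes, which normal hepatocytes do not make, were among the higher genes. Of 14 compared, 10 were higher and none lower, with a median of 1.89, against 16.9% higher in the class of the median member. Their summed signal as log2 was 6.51 in natural aging, 3.51 in untreated diabetes, 4.48 with metformin and 2.48 with APS plus metformin. The brightest single level was 2.52 in untreated diabetes, 2.52 with metformin and 2.20 with APS plus metformin, so 1 member weighs heavily in these sums. The median levels of the list were 2.47, -2.16, -0.22 and -4.89. Prss2, a trypsinogen, stood at 3.78, -0.32, 1.93 and -5.87 and Cpa1, a carboxypeptidase, at 2.79, -2.25, -0.25 and -5.09, so metformin lay between the natural aging and the aging diabetic array. Their folds were 4.77 and 4.00. The part of pancreatic RNA in the other differences was not tested. Of 5 islet markers compared, Ppy was at least 3.62-fold higher, and Ins1 (0.72) and Ins2 (0.77) were short of 2-fold. Adipocyte markers gave 3 of 9 higher, with the adipsin gene Cfd at 4.89-fold while Adipoq was at 0.18. By class the adipocyte calls were 1 of 3 in the second dimmest, against 16.9% of all its genes, and 2 of 5 in the next, against 6.58%. Mesothelial markers gave 3 of 7, all among the 6 in the dimmest class, where 22.6% of all genes were higher. Of the 7, 2 were well above background on the aging diabetic and 7 on the metformin array. The other 5 entered the comparison through the metformin array only, and such genes could not be called lower. Cholangiocyte markers gave 2 of 10 and muscle markers none of 8, against 16.9% in the class of their median members. Erythroid markers gave 1 of 5, a gene of that same class.

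Immediate-early genes, which respond to stimuli and to handling within minutes, had 11 of 22 members higher and 1 lower, with a median of 1.001, against 6.58% higher and 2.73% lower in the class of the median member. Egr1 was at 0.89 in natural aging, -2.73 in untreated diabetes, 0.15 with metformin and -1.85 with APS plus metformin, and Fos was at -1.29, -2.85, -0.61 and -1.60. Both were lowest on the aging diabetic array, with folds of 7.35 and 4.72. Jun (1.25), Myc (1.12, with 0.58 by its other probe) and Atf3 (1.66) were higher as well, while Junb (-0.32), Ier2 (0.06) and Zfp36 (0.31) were short of 2-fold. Of 17 genes of NF-kB feedback and Toll-like receptors, 5 were higher, against 16.9% in the class, among them Cd14 (1.49) and Tnfaip3 (1.04).

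Genes with a female-biased pattern in mouse liver were higher in 8 of 19 cases and lower in 2, against 16.9% and 5.14% in the class of the median member. All mice were male. The sulfotransferase gene Sult3a1 was at -6.56, -5.57, 1.16 and -0.26, below background on both untreated arrays, and was at least 60.2-fold higher. Its relative Sult3a2 was at least 32.9-fold higher. Sult2a2, also a sulfotransferase, stood at -6.77, -0.39, 2.76 and 3.09, with a fold of 8.86. Natural aging was the lowest, the aging diabetic array lay between, and both metformin arrays were the highest. Hao2, a hydroxyacid oxidase gene, was 17.6-fold higher but high on the metformin array alone, at -0.16 against -3.82, -4.29 and -3.61 for the other arrays. Cyp17a1 (-1.04) and Cux2 (-1.02) were lower.

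Male-biased genes gave 2 of 17 higher and 1 lower. The share higher, 11.8%, was that of all genes compared, of which 3.5% were lower. Hsd3b5, whose product acts on steroids in male liver, gave a bound of at least 2.43-fold higher, yet its levels of 2.72, -5.12, -3.47 and -5.19 put the metformin array far under natural aging. In the growth hormone axis 2 of 17 genes were higher, again 11.8%, among them the feedback gene Cish (1.42). The estrogen receptor gene Esr1 (-1.38) was lower. Of 22 cytochrome P450 genes, 4 were higher, Cyp2c55 (2.58, with 1.55 by its other probe), Cyp1b1 (2.28), Cyp2g1 (1.80) and Cyp2r1 (1.03), while the abundant Cyp2e1 (-0.28) and Cyp3a11 (-0.34) were not called. By class the P450 calls were 2 of 2 in the second dimmest, against 16.9% of all its genes, and 2 of 3 in the next, against 6.58%. None of the 17 P450 genes in the brightest class was called, against 0.885% higher. Mgst2, a microsomal glutathione transferase, was 12.3-fold higher, with levels of -6.00, -2.66, 0.97 and 0.94.

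Around the central vein 4 of 18 pericentral genes were higher, the Wnt pathway genes Tcf7 (1.94), Nkd1 (1.49) and Znrf3 (1.43) and the ammonium transporter gene Rhbg (1.39). By class these were 1 of 2 in the dimmest (22.6% of all its genes higher) and 2 of 3 in the next (16.9%). In the class above none of 3 was higher (6.58%), and in the brightest 1 of 10 was (0.885%). Glul (-0.20) and Axin2 (0.59) were short of 2-fold. Of 18 periportal, urea cycle and amino acid genes, Hsd17b6 (-1.24) was lower and none higher, with a median of -0.38. In the clock list 1 of 16 was called, Per3, which stood at -0.91, -0.31, -2.13 and -0.93 and was 3.52-fold lower, while Per1 (-0.01), Arntl (0.05) and Dbp (-0.68) were short of 2-fold. Among 20 growth factors and receptors 7 were higher, 4 of the 6 in the dimmest class (22.6% of all its genes), 2 of 6 in the next (16.9%) and none of the 6 brightest, with the EGF receptor ligand gene Areg at -5.02, -4.53, -0.84 and -3.90 and 12.8-fold, and Lepr was the 1 lower. Rragd, of the mTORC1 list, was at least 4.24-fold higher and the 1 of 12 called, but its other probe, at 0.61, was short of 2-fold. Abcb1a (1.04) was the 1 of 19 conjugation and efflux genes called, and Gpnmb (2.77), Enho (-1.17) and Tsku (-1.01) were the 3 of 21 hepatokine genes.

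Lepr, the leptin receptor gene, had the lowest measured difference after Derl3. It stood at -0.50 in natural aging, 1.05 in untreated diabetes, -3.31 with metformin and -0.19 with APS plus metformin. The metformin array was low by itself, 20.4-fold under the aging diabetic array, and the other usable probe differed by -3.79. Leprot, which shares its locus, was at 0.46, with 2.02 by its other probe.

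Camk2b, a calcium-dependent kinase gene, was at -0.92, 0.32, -3.15 and 0.44, low on the metformin array alone and 11.1-fold lower, with -0.88 by its other probe. Wdr86 was 13.6-fold lower with -1.43 by its other probe, and Icam4, an adhesion molecule of red cells, was 8.67-fold lower. Trim12a was 7.94-fold lower, with -5.58 by its other probe. The bounds on the lower side were led by the interferon-inducible Ifi202b, at 0.53, 0.04, -6.81 and -0.69, which was at least 31.8-fold lower, and by the defensin gene Defb26, at least 24.5-fold lower.

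On the higher side, Cib3, of a calcium-binding protein family, was at -0.89, -1.44, 2.79 and -0.40 and 18.7-fold higher, and Mrap2, an accessory protein gene of melanocortin receptors, was at 1.25, -2.41, 1.61 and -2.09 and 16.2-fold higher. Cib3 was high on the metformin array alone, Mrap2 on the natural aging and metformin arrays. Tob2, a regulator of mRNA decay and proliferation, gave the largest bound, at least 158-fold higher. Its single probe was at 2.73, 2.55 and 2.79 on the other arrays and at -6.91 on the aging diabetic array, so this difference rests on 1 spot of the aging diabetic array.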

How the data were processed

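Liver RNA of 4 groups was measured on 1 array each, and 2 of these arrays were compared. Per the file headers, the deposited scanner files hold red-channel spot intensity that Agilent Feature Extraction (version 11.5.1.1, against 10.7 in the submitters' processing notes) had background-subtracted, together with an error of each signal and flags for outlier, saturated and well above background spots. The deposited log2 series table holds values the authors normalized by a method not stated here. Its 4 columns served as an alternative.

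From the intensities, values were put on a log2 scale less the 75th percentile of the array's spots that are not controls (Python 3.11.15, numpy 2.4.6, pandas 2.3.3). Outlier spots were left out, which dropped 4026 of 56605 probes, and 52579 were usable on both arrays. Unversioned accessions matched 33767 probes to symbols of the RefSeq table (GRCm38.p6); 22838 matched none. The files name another build, so their coordinates were not used, and the promoter windows and gene neighbours given are those of the RefSeq tables. The brightest probe, by its mean over the 4 arrays, represents a gene. Genes entered the comparison when well above background on 1 array or both. Bounds used the dimmer array's own signal or, if larger, its lowest well above background signal (levels of -4.75 on the aging diabetic and -4.95 on the metformin array). No test was run. The number of arrays limits the precision.

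Named genes were the 10 largest differences each way among genes bright on both arrays, the same 10 among genes above their array's 75th percentile, the 5 largest bounds each way, up to 4 members a list with others its description needs, and 18 fixed genes. Genes without a known function were left out. Lists, members and rules were chosen with earlier results of these data known. Alternatives covered scaling, background, outlier spots, dim probes, probe choice, bounds, the threshold and the authors' table. Quantile, cyclic loess and normexp settings used limma 3.58.1 in R 4.3.3; normexp (offset 50) ran on median signals, the raw column used here. E1A scaling and probes usable on all 4 arrays were added after seeing the data. The procedure was tested on simulated data. Some members of the lists are counted but not reported by name here.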

Additional observations from a re-analysis of the deposited data

Results flagged for a closer look

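Probes whose accession matched no gene were outside the comparisons above, and they carried signal as well. Of 10525 such probes that were well above background on at least 1 of both arrays, 683 were 2-fold or more higher on the metformin array (6.49%) and 779 were lower (7.40%). Among matched genes 11.8% were higher and 3.5% lower, so the unmatched probes had the larger share on the lower side. Long noncoding RNA genes with a match had 6.31% higher and 9.55% lower. The probes have no gene name here, and the source of the difference was not tested.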

How the results depend on the processing

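No paired analysis was possible because each group has 1 array, and for the same reason no replicate could be left out. The counts of higher and lower genes were 3250 and 1489 at 1.5-fold and 739 and 177 at 3-fold. Without the filter on dim probes 3084 genes were higher. Scaling on the E1A control probes, chosen after seeing the data, gave 3088 higher and 258 lower genes and an all-gene median of 0.362. It also moved list medians to 2.27 for acinar, 2.23 for T and NK cell, 1.87 for cell cycle, 1.82 for monocyte, 1.82 for stellate cell, 1.41 for fetal, 1.38 for immediate-early, 1.33 for interferon-stimulated and 1.17 for cholesterol genes. Under it heat shock genes came to -0.40 and ER genes to -0.090, and 26 of 58 list medians went from below to above 0, among them hepatocyte markers (0.047) and metformin transporters (0.020). The other 24 had been within 0.3 of 0. Quantile normalization and the authors' table each turned 10 list medians from below to above 0 and cyclic loess 9, median scaling turned 4 to below 0, and each other setting turned 0 to 2. With genes dim on 1 array left out, medians were 1.23 for the cell cycle and 1.25 for stellate cells, and dendritic markers turned to -0.063. Normexp gave 1.57 for T and NK cells and 1.22 for stellate cells. Without the dim filter these were 2.07 and 1.25. Measured differences in place of bounds gave 2.29 for T and NK cells and 1.81 for the cell cycle. Averaging the probes of a gene gave 1.26 for stellate cells, -0.96 for heat shock and -0.72 for ER genes. Keeping outlier spots gave -0.58 for heat shock. The ER median was -0.300 after quantile normalization, -0.299 after cyclic loess and -0.283 in the authors' table. Scaling on the E1A probes or on the array median adds the same constant to every measured difference. The list medians moved by either scaling are therefore 1 shift and not separate results. The cause of the other shifts was not tested, beyond the fewer or more genes that a filter leaves. The limit for a move was the median error of a difference or the gene's own error. Over all settings, 2570 differences of named genes and 561 list medians stayed within it, and 442 and 132 moved by more. A further 3 list medians that lay 0.3 or more from 0 changed sign, those of hepatocyte, transporter and dendritic genes. Under median scaling all 254 differences and 58 medians stayed within the limit. Under E1A scaling 227 and 56 moved by more and 2 medians changed sign. Both outcomes were set mainly by the size of the added constant, so that part of the totals does not measure stability. Long noncoding RNA genes had more higher than lower calls with E1A scaling (153 and 58), without the dim filter (270 and 200) and with measured differences in place of bounds (157 and 136). One spot on 1 array limits each value, and no setting adds the spread between mice.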
